A study of Mus musculus with 6 samples.

Results

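The clustered histone genes are the protein-coding genes whose symbols begin with Hist1h, Hist2h, Hist3h or Hist4h in GENCODE M21, an annotation of the mouse genome build mm10. Of the 54532 genes in the deposited tables, 67 met this rule, and the rule used no measured value. They comprise 6 H1, 18 H2A, 18 H2B, 12 H3 and 13 H4 genes, of which 54 lie in the Hist1 locus on chromosome 13, 10 in the Hist2 locus on chromosome 3, 2 in the Hist3 locus on chromosome 11 and 1, Hist4h4, on chromosome 6. The RNA of 6 sorted populations from C57BL/6 mice was sequenced, with 1 library per condition. WT macrophages came from normal mice given PBS and WT/FE macrophages from normal mice given iron. MA9 and MA9/FE macrophages came from leukemic mice given PBS or iron, and MA9 and MA9/FE leukemia cells from leukemic mice given PBS or iron. Leukemia in these mice was established by transplanting GFP+ cells transformed with an MLL-AF9 retrovirus, and iron overload by repeated intraperitoneal injections of iron dextran. The macrophages were sorted from the GFP- cells by surface markers. By the labels the macrophages are from the spleen, by the study's methods from the bone marrow, and which holds was not settled. The leukemia cells are from the bone marrow by the labels. The number of mice behind each library is not given in the sources used here, so the spread between mice is unknown and no difference between 2 libraries has a replicate check.

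Clustered histone genes encode the core histones H2A, H2B, H3 and H4, which form the nucleosome, and the linker histone H1, which binds the DNA entering and leaving it. Most of them are transcribed in S phase, when new DNA has to be packaged, and their transcripts end in a stem-loop that is bound by the stem-loop binding protein Slbp in place of a poly(A) tail. Transcripts of some members can instead be extended past the stem-loop and polyadenylated, which is known from cells that have left the cell cycle. A library made from polyadenylated RNA therefore sees only part of the histone mRNA, and the sources used here do not state whether poly(A) RNA was selected. Of the replication-independent variants, H2afz and H3f3b are encoded by genes with introns elsewhere in the genome and have ordinary poly(A) tails. The structure of the other variant genes named below was not examined, and not all of them need share these features.

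The stem-loop was found, with at most 1 mismatch, in the annotated transcripts of 43 of the 67 genes. In 13 of the others the annotated transcript ends at the stop codon, so no stem-loop could be found there. The stem-loop is shown for 4 members that lead a result below, as the 26 bases around it in the 3′ untranslated region. Its 16 bases are in capitals.
Hist1h1c: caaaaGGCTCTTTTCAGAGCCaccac
Hist1h2bg: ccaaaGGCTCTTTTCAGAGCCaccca
Hist1h4i: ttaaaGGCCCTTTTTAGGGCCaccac
Hist3h2ba: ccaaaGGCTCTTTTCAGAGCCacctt
The stem-loop began 25 bases after the stop codon in Hist1h1c, 30 in Hist1h2bg, 31 in Hist1h4i and 29 in Hist3h2ba. The annotated transcript did not stop there in any of these 4 genes. It went on for 840 bases past the stem-loop in Hist1h1c, 330 in Hist1h4i, 169 in Hist3h2ba and 155 in Hist1h2bg.

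Promoters of the same 4 genes are shown because Hist1h1c had the most reads, Hist1h2bg led the comparison of leukemia cells with and without iron, Hist1h4i led the H4 genes, and Hist3h2ba was the member whose level was called lower in leukemia cells. The sequences are those of RefSeq on GRCm38.p6 (mm10) and run from 250 bases before to 50 bases after the start. Capitals mark the octamer ATTTGCAT (bound by Oct factors), the CCAAT box (bound by NF-Y) and the TATAAA form of the TATA box, wherever they fell and on either strand. None of these 3 strings contains another.
Hist1h1c, chr13:23738557-23738856, plus strand: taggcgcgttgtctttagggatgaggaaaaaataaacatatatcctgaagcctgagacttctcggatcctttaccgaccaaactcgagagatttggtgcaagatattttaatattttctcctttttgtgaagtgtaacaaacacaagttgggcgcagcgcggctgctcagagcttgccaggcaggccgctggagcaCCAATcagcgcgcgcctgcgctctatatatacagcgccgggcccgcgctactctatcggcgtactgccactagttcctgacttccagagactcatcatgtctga
Hist1h2bg, chr13:23571150-23571449, plus strand: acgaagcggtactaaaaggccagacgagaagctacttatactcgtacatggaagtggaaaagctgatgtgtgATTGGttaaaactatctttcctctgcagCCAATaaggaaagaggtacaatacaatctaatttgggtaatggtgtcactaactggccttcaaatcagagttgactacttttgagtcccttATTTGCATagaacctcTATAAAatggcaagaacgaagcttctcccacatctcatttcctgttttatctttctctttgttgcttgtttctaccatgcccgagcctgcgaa
Hist1h4i, chr13:22041313-22041612, minus strand: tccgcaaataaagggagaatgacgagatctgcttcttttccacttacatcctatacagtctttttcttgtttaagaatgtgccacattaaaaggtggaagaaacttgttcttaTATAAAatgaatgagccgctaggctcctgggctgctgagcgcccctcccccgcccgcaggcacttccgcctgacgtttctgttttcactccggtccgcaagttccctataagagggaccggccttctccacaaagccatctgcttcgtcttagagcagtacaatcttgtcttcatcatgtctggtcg
Hist3h2ba, chr11:58948661-58948960, plus strand: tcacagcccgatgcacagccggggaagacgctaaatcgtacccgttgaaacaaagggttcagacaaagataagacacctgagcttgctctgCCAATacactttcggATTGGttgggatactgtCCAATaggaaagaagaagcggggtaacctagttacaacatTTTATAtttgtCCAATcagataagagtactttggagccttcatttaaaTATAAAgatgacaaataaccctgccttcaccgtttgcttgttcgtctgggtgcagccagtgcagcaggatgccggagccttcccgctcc
Promoters could be matched for 62 of the 67 genes. The octamer was present in 13 of the 62 (20.97%), against 1.735% of all 32851 promoters, and these 13 were 7 of 18 H2A and 6 of 16 H2B genes. The CCAAT box was present in every H1, H2A, H2B and H3 window but in 3 of 12 H4 windows, 85.48% in all against 37.41% of all promoters. TATAAA was present in 56.45% against 13.62%. H2A and H2B genes often sit head to head, and 12 such pairs had starts within 500 bases of each other, so their windows overlap. Hist1h2bg and Hist1h2ae started 176 bases apart, Hist1h2bc and Hist1h2ac 251, and Hist2h2be and Hist2h2ac 239. The partners were not at one level, since Hist1h2bg had 897 reads over the 6 libraries and Hist1h2ae 173, Hist1h2bc 1432 and Hist1h2ac 280, and Hist2h2be 1193 and Hist2h2ac 39. These matches describe letters in a window, and their part in the levels was not tested.

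Few reads fell on these genes. The deposited FPKM (a read count divided by exon length and library size) came out as whole reads for all 67 genes in all 6 libraries, so each value can be given with the number of reads behind it. The libraries held 16085346 to 19518359 reads. Below, 4 macrophage values stand in the order WT, WT/FE, MA9, MA9/FE, and 2 leukemia values in the order MA9, MA9/FE. The clustered histone genes held 2038, 2017, 1991 and 2218 reads in the macrophages and 3350 and 5396 in the leukemia cells. In RPM (reads scaled to the library total, on the same base as FPKM but not divided by length) the 6 values were 104 (95% Wilson interval 99.98 to 109), 120 (115 to 125), 117 (112 to 122), 138 (132 to 144), 185 (178 to 191) and 302 (294 to 310). The intervals here and below cover counting error only, since reads from PCR without molecular identifiers are not independent molecules. Both leukemia libraries were above the 4 macrophage libraries, and MA9/FE leukemia cells were above MA9 leukemia cells. Of the 67 genes, 57 had reads in some library, 35 in every library, and 10 in none. A count of 0 allows a level of up to 0.154 to 0.187 RPM in a library. At least 10 reads in some library were reached by 47 genes, and at least 100 by 7. By unscaled reads, 34 of the 57 genes with reads were highest in MA9/FE leukemia cells. The share of all genes highest there was not counted, so the 34 cannot be set against it.

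**Figure D1:**
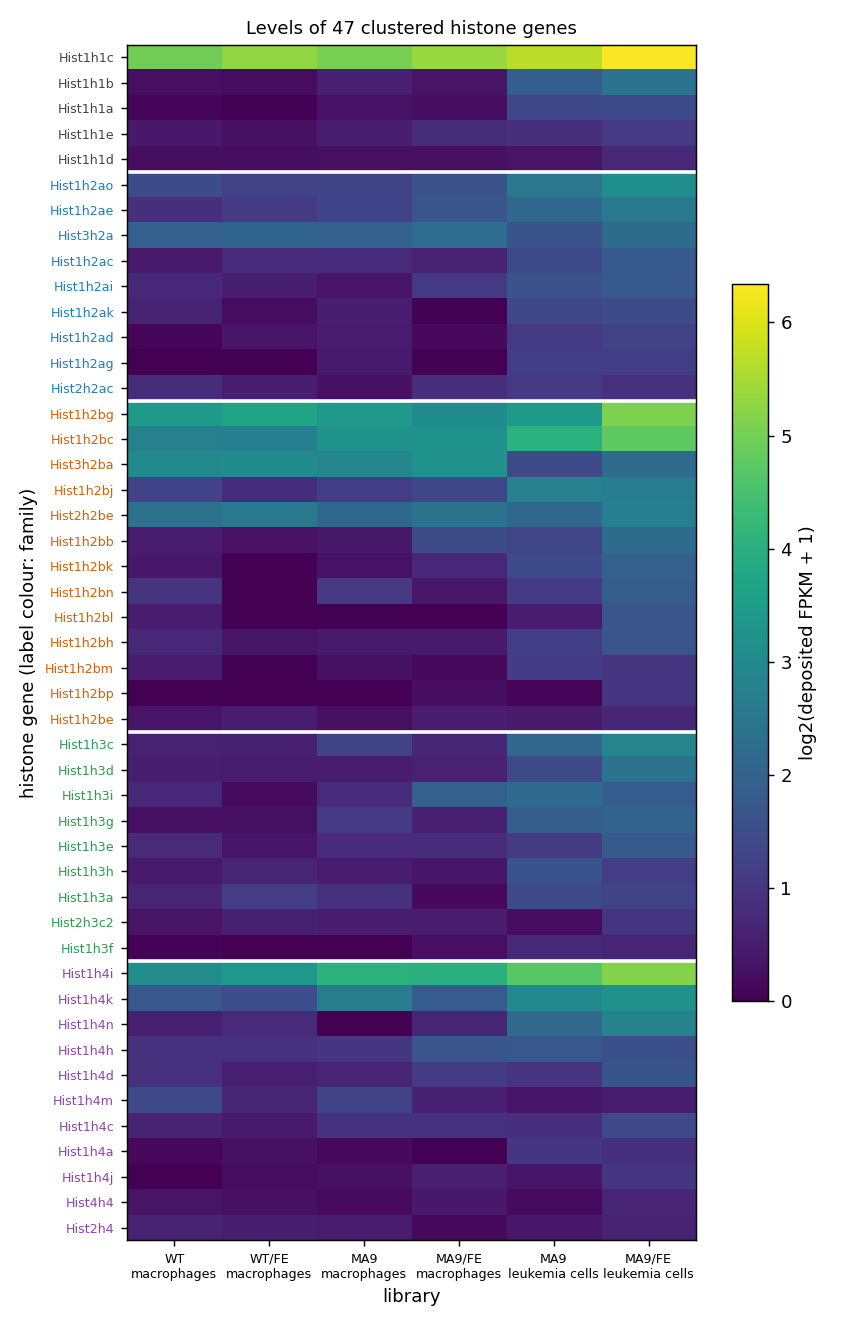
Level of each of the 47 clustered histone genes with at least 10 reads in some library (rows, grouped by family and ordered by their highest value) in the 6 libraries (columns), as log2(deposited FPKM + 1). Hist1h1c is the brightest row in every library, and most H2A, H2B and H3 rows are brighter in the 2 leukemia libraries on the right than in the 4 macrophage libraries.

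A few members carried most of the signal. Hist1h1c, a linker histone gene (chr13:23738808-23740367), held 41.3% to 49.4% of the reads of all members in each library, and 6 genes together (Hist1h1c, Hist1h2bc, Hist1h4i, Hist2h2be, Hist1h2bg and Hist3h2a) 72.5% to 83.0%. In FPKM, Hist1h1c was at 30.5, 38.0, 32.0 and 40.4 in the macrophages and at 50.03 and 80.1 in the leukemia cells. Hist1h4i, which encodes H4, was at 7.61, 9.42, 15.9 and 15.3 in the macrophages and 25 and 34.7 in the leukemia cells. For both genes the 2 leukemia libraries did not overlap the macrophage libraries. Hist1h2bc, an H2B gene whose annotated transcript is spliced, was at 5.85, 5.66, 8.34 and 8.60 FPKM in the macrophages and 15.5 and 26.2 in the leukemia cells. Hist1h2bg, a second H2B gene, was at 9.62, 12.1, 9.71 and 7.44 in the macrophages and at 9.98 and 33.3 in the leukemia cells, so that only MA9/FE leukemia cells stood apart from the other 5 libraries. Hist2h2be and Hist3h2a, which also had at least 100 reads in a library, did not separate the cell types. Hist2h2be (H2B) was between 3.43 and 4.88 FPKM in the macrophages and at 3.36 and 5.69 in the leukemia cells, and Hist3h2a (H2A) between 2.84 and 3.91 and at 2.13 and 3.73. Hist1h2ac (H2A) was between 0.372 and 0.696 in the macrophages and at 1.66 and 2.46 in the leukemia cells, with no overlap.

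By family, H1 took the most RPM in every library, 49.8 to 66.3 in the macrophages and 84.7 and 136 in the leukemia cells. H2B followed with 31.9 to 36.8 and then 43.7 and 83.6. H4 had 10.6 to 17.3 and then 27.2 and 39.4, H2A 9.58 to 13.5 and then 18.0 and 25.5, and H3 2.56 to 3.98 and then 11.02 and 17.4. The members of a nucleosome are needed in equal numbers, but the summed levels per length were unequal. These sums depend on how reads of shared sequence were assigned and on poly(A) selection, and neither is stated. They therefore do not give the true ratio of the families, and the contrast with the variants has the same limit. In MA9/FE leukemia cells the summed FPKM was 91.0 for H2B, 59.2 for H4, 28.3 for H2A and 23.4 for H3. Of the replication-independent variants, some were above the summed clustered genes of their family and others below. H3f3b, an H3.3 gene, was at 248 to 358 FPKM and H2afz, the H2A.Z gene, at 128 to 341, against summed FPKM of 3.67 to 23.4 for the clustered H3 and 8.31 to 28.3 for the clustered H2A genes. H1fx, at 0.379 to 3.77, was below the summed clustered H1 genes (31.3 to 87.8), and H2afy2, at 0.0547 to 7.93, below the clustered H2A genes in each library.

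**Figure D2:**
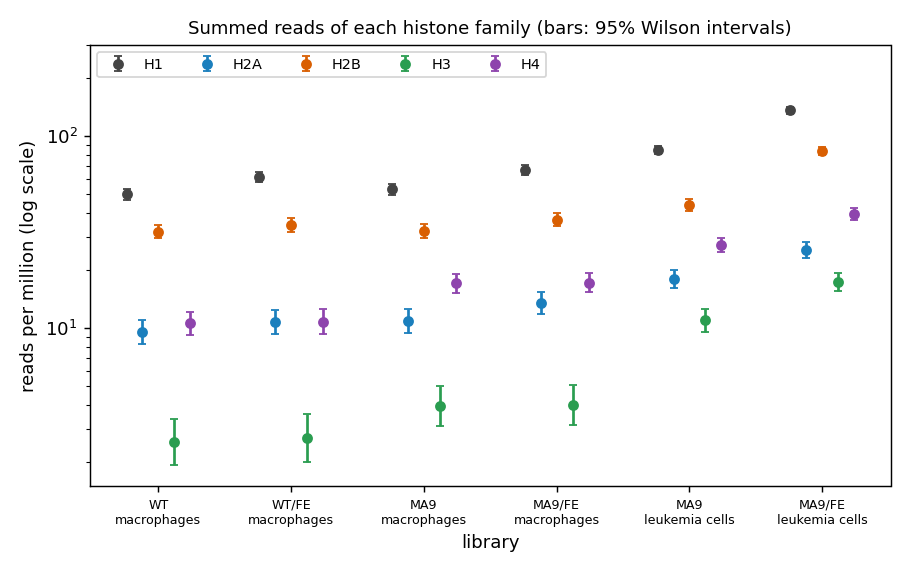
Summed level of the members of each histone family in RPM (log axis) in the 6 libraries, with 95% Wilson intervals for counting error. All 5 families are highest in MA9/FE leukemia cells, and H3 lies lowest in every library.

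The labels were checked on marker genes fixed in a list. Macrophage genes were measured in the macrophage libraries (Adgre1, which encodes F4/80, 32.2 to 54.5 FPKM), but 8 B cell genes took 0.323% to 0.541% of the reads there, against 0.159% to 0.330% for 16 macrophage genes. The B cell gene Cd79a was at 415 to 802 FPKM in these libraries and at 0.832 and 0.9996 in the leukemia cells, so RNA of B cell genes was present in the macrophage libraries and nearly absent from the leukemia cells. The 16 macrophage genes took 0.187% and 0.230% in the leukemia cells, so their sum did not separate the cell types. Of 17 macrophage genes, 10 were lower by a fold of at least 2 in MA9 leukemia cells than in MA9 macrophages. Itgam and Lyz2 were higher by that fold. The 10 neutrophil and granule genes took 0.000768% to 0.000927% of the reads in WT and WT/FE macrophages, 0.175% and 0.0869% in the macrophages of leukemic mice without and with iron, and 0.648% and 0.545% in the leukemia cells. Hoxa9, a gene switched on by MLL-AF9, was at 40.6 and 41.0 FPKM in the leukemia cells and at 0.119 to 0.791 in the macrophages. It stood on a list of 6 leukemia genes, which took 0.111% and 0.116% of the reads in the leukemia cells. Hoxa9, Hoxa10, Meis1 and Myb were higher there than in macrophages of leukemic mice by a fold of at least 2, without and with iron. Kit was lower by that fold without iron. In such libraries fewer cells of a type and less RNA per cell cannot be told apart, and the part of these other cells in the histone values was not tested.

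The comparison of MA9/FE with MA9 leukemia cells asks what iron overload changes in the leukemia cells themselves. Most of the measured clustered histone genes were higher with iron. Hist1h2bg, the H2B gene with the octamer and TATA box shown above, had 112 reads without and 367 with iron, a scaled read ratio of 3.31 (95% counting interval 2.68 to 4.13). Hist1h1c had 1417 and 2230 reads, a ratio of 1.59 (1.49 to 1.70). Hist1h2bc had 326 and 540 (ratio 1.68, 1.46 to 1.93), and Hist1h4i 330 and 450 (1.38, 1.19 to 1.59). Ratios above 2 were also seen in genes with fewer reads, Hist1h3d (H3) with 37 and 96 reads (2.62, 1.78 to 3.95) and Hist1h1d (H1) with 34 and 88 (2.62, 1.74 to 4.01). Hist3h2ba, which was low in leukemia cells, had 20 and 41 reads (2.07, 1.19 to 3.74). Summed over all members the ratio was 1.63 (1.56 to 1.70), and it was 1.66 (1.57 to 1.75) without Hist1h1c and 1.56 (1.47 to 1.65) without Hist1h1c and Hist1h2bg. By family it was 1.90 (1.74 to 2.08) for H2B, 1.602 (1.502 to 1.71) for H1, 1.57 (1.31 to 1.88) for H3, 1.44 (1.28 to 1.62) for H4 and 1.42 (1.22 to 1.64) for H2A. Each family's interval lay above 1.

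**Figure D3:**
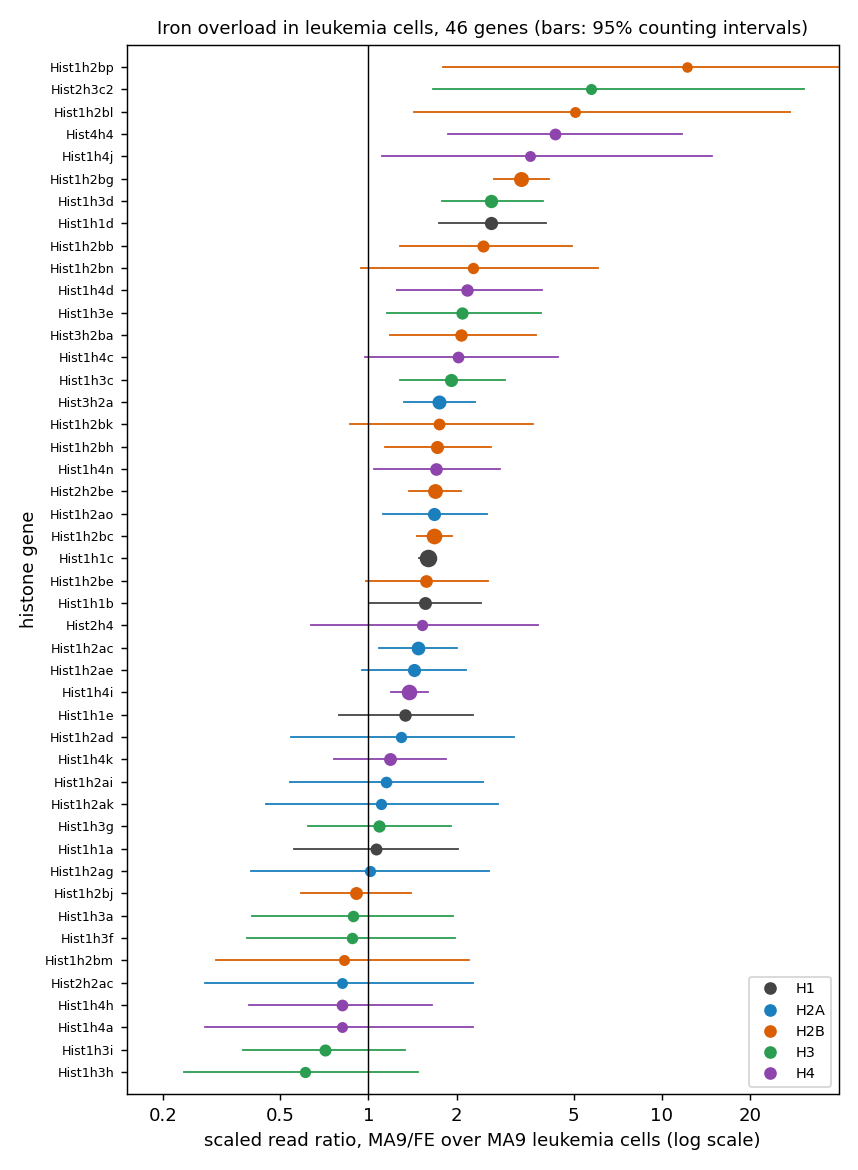
Scaled read ratio of MA9/FE over MA9 leukemia cells (log axis) for the 46 clustered histone genes with at least 10 reads in one of the pair, with 95% counting intervals, coloured by family. Larger points had more reads, the interval of Hist1h2bp is drawn only to 40, and 23 of the 46 intervals lie wholly to the right of 1 and 0 wholly to the left.

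Of the 46 genes tested, 37 were higher with iron by any fold, against 49.3% of all genes, and the median log2 fold change was 0.46 on the log2(scaled FPKM + 1) scale against -0.00 for all 15290 genes tested. The filter lets through 6 genes by MA9/FE leukemia cells alone and 4 by MA9 leukemia cells alone. The 95% counting interval lay wholly above 1 in 23 genes and wholly below 1 in 0, where all genes gave 14.7% and 15.4%. A fold of at least 2 was reached by 2 genes, Hist1h2bg with a log2 fold change of 1.63 and Hist1h2bl with 1.13 on 3 and 15 reads, and no gene was lower by that fold, against 0.366% higher and 0.425% lower among all genes. That count depended on the pseudocount and was 12 with a pseudocount of 0.1 in place of 1. The 9 genes that were lower had few reads, and the one with the most, Hist1h2bj (H2B), had 49 and 44 (0.908, 0.591 to 1.39).

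Genes of DNA replication did not move with the histone genes in this comparison. Of 30 S phase and division genes, 0 changed by a fold of at least 2 and 8 were higher, with a median of -0.06. Mki67, a proliferation marker, was at 68.5 and 73.4 FPKM, Top2a, which encodes a topoisomerase of dividing cells, at 72.2 and 76.7, and Pcna, the sliding clamp of DNA polymerase, at 166 and 170. The 18 measured genes of histone mRNA transcription and processing had 0 past the fold and a median of 0.02. Slbp was at 20.2 and 20.5 FPKM and Npat, which activates histone transcription at the histone locus body, at 6.13 and 6.28. Of the replication-independent variants, 0 of 11 passed the fold. The one with the largest difference was H1f0, a linker histone gene of cells that divide little, at 52.3 and 84.9 FPKM (log2 fold change 0.68), near that of Hist1h1c (0.66). H2afx was at 200 and 241 and H3f3b at 294 and 354. The list of histone chaperones had a median of -0.02 and that of histone promoter factors 0.00, with 0 genes past the fold in both. Erythroid genes took 0.0353% of reads without and 0.0137% with iron, and their part in the histone values was not tested.

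The comparison of leukemia cells with the macrophages of leukemic mice, each without or with iron, asks how the 2 populations differ. Whether both came from the same mice is not stated in the sources used here. By the labels they also came from different organs, and organ and cell type cannot be told apart here. Most clustered histone genes were higher in the leukemia cells. Without iron, 9 of 41 genes tested were higher by a fold of at least 2 and 1 was lower, against 6.89% and 13.0% of all genes. With iron, 21 of 42 were higher and 1 lower, against 8.98% and 13.9%. By any fold, 34 of 41 and 38 of 42 were higher, against 46.5% and 45.5% of all genes. The medians were 0.69 and 0.99, against -0.05 and -0.07 for all genes. Genes that reached 10 reads only in the leukemia cells had to be higher there. Among genes with at least 50 reads, 4 of 8 were higher without iron, with a median of 0.25. Of the 8, 0 were higher by a fold of at least 2 and 1 was lower by that fold. With iron 13 of 15 were higher, 9 by that fold and 1 lower, with a median of 1.15. The shares of all genes above belong to the filter of 10 reads, so the counts at 50 reads cannot be set against them. The summed reads had a ratio of 1.49 (1.41 to 1.57) without iron and 2.05 (1.95 to 2.16) with iron. H3 genes stood furthest apart, with 2.64 (1.99 to 3.54) and 4.09 (3.11 to 5.43). Among genes with at least 50 reads, the largest differences with iron were those of Hist1h3c (H3), with 6 reads in MA9/FE macrophages and 72 in MA9/FE leukemia cells (log2 fold change 2.15), Hist1h1b (H1), with 3 and 57 (2.03), and Hist1h2bg, with 74 and 367 (1.93). Hist1h2bg did not differ without iron, with 102 reads in MA9 macrophages and 112 in MA9 leukemia cells (ratio 0.972, 0.736 to 1.28).

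Hist3h2ba, an H2B gene of the Hist3 locus (chr11:58948920-58949533), went the other way. It was at 7.01, 7.27, 6.71 and 8.40 FPKM in the macrophages and at 1.79 and 3.74 in the leukemia cells. The ratio of leukemia cells to macrophages was 0.253 (0.146 to 0.421) without iron and 0.417 (0.279 to 0.613) with iron. The log2 fold change with iron was -1.07, and it no longer passed a fold of 2 with scaling to total reads or with the exon length trend removed. The other gene of that locus, Hist3h2a, had ratios of 0.687 (0.509 to 0.923) and 0.893 (0.701 to 1.14). Together the 2 Hist3 genes gave 0.515 (0.400 to 0.660) and 0.712 (0.582 to 0.870), the 54 Hist1 genes 1.66 (1.56 to 1.76) and 2.31 (2.19 to 2.44), and the 10 Hist2 genes 0.936 (0.756 to 1.16) and 1.26 (1.05 to 1.51). Among the 47 genes with at least 10 reads in some library, both leukemia libraries were above all 4 macrophage libraries in 29 and below them in 2, Hist3h2ba and Hist1h4m, against 29.4% and 37.5% of all genes. At least 10 reads were reached by 16 to 24 members in a macrophage library and by 40 and 42 in the leukemia libraries. Genes that passed only through the leukemia libraries could hardly come out below, so the filter partly set the 29.

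A model over all 6 libraries gave the only test of these genes. It used limma with cell state and iron as terms, so libraries with and without iron served as repeats of a cell state, which holds only if iron acted alike in each. Of 38 members tested, 20 rose in leukemia cells against MA9 macrophages and 1 fell at an adjusted p of at most 0.05, against 18.1% of all genes higher, 24.8% lower and 42.9% in all. Of the 23 members with at least 10 reads in at least 2 macrophage libraries, 9 rose and 1 fell. The share of all genes called under this macrophage filter was not counted, so these 2 counts cannot be set against it. The other 15 passed the filter through the leukemia libraries, and 11 of them rose. Hist1h4n and Hist1h1b belong to these 15, so they had to be higher in the leukemia cells. Hist1h4n, an H4 gene with 4, 5, 0 and 4 reads in the macrophages and 28 and 47 in the leukemia cells, had a log2 difference of 2.13 (SE 0.17, adjusted p = 0.000572 by limma). Hist1h1b had 1.66 (SE 0.20, adjusted p = 0.00232 by limma). Hist1h1c rose by 0.71 (SE 0.13, adjusted p = 0.0105 by limma) and Hist3h2ba fell by 1.29 (SE 0.20, adjusted p = 0.00568 by limma), each in the same direction in both pairs. Without the iron term Hist1h1c did not pass (adjusted p = 0.0603 by limma). The other genes that rose were Hist1h1a, Hist1h2ac, Hist1h2ad, Hist1h2ae, Hist1h2ag, Hist1h2ai, Hist1h2ak, Hist1h2ao, Hist1h2bc, Hist1h2bh, Hist1h2bj, Hist1h2bk, Hist1h3c, Hist1h3d, Hist1h3f, Hist1h3g and Hist1h4i, by 0.54 (Hist1h3f) to 1.47 (Hist1h3c). Hist1h2bg had 0.95 (SE 0.45, adjusted p = 0.149 by limma), and was at 9.98 and 33.3 FPKM in the 2 leukemia libraries.

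The comparison of MA9 with WT macrophages asks what leukemia changes in the macrophages. On the log2(scaled FPKM + 1) scale no clustered histone gene differed by a fold of 2, while 19 of 30 S phase genes were higher by that fold. This scale understates the fold of low genes, as most members are. With a pseudocount of 0.5 in place of 1, 2 members were higher by that fold, and with 0.1, 3 were. Of 24 members tested, 0 were higher or lower by a fold of at least 2, against 3.80% and 0.965% of all genes, and the median was 0.01. The S phase and division genes had a median of 1.12. Genes of other cells were higher in the same comparison, 8 of 9 erythroid genes (0.00956% and 0.0318% of the reads), 10 of 10 neutrophil genes and 3 of 7 plasma cell genes by a fold of at least 2, and their part in these values was not tested. Mki67 was at 11.7 FPKM in WT and 57.1 in MA9 macrophages and Top2a at 9.50 and 44.6. Hist1h4i came nearest to the fold, with 108 and 196 reads (ratio 2.09, 1.64 to 2.67, log2 fold change 0.97). It was the member with the smallest adjusted p in the model over 6 libraries (log2 difference 0.81, SE 0.15, adjusted p = 0.0751 by limma, higher in both pairs), where 0 members passed against 1.02% of all genes. At an unadjusted p under 0.05 there were 3 of 38 members and 3536 of 17002 genes, and 29 of the 38 members had a difference above 0. The summed H4 reads had a ratio of 1.62 (1.35 to 1.94), but without Hist1h4i it was 1.10 (0.824 to 1.48). The summed H3 reads had 1.54 (1.05 to 2.27), and the genes with short 3′ ends described below 1.34 (1.06 to 1.70). The summed reads of all members had a ratio of 1.12 (1.06 to 1.20). Of the variants, H2afx (43.5 and 114 FPKM), Cenpa, the centromeric H3 (9.15 and 20.8), and H1fx (0.379 and 3.77) were higher by a fold of at least 2, and of the chaperones Asf1b, Chaf1a and Hjurp.

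With iron in both groups, MA9/FE against WT/FE macrophages, 2 of 25 members were higher by a fold of at least 2 and 1 lower, against 2.85% and 1.73% of all genes. All 3 had under 20 reads. Hist1h2bb (H2B) had 2 reads in WT/FE and 14 in MA9/FE macrophages (ratio 7.35, 1.69 to 66.6), Hist1h3i (H3) had 1 and 19 (19.9, 3.17 to 829), and Hist1h3a (H3) had 11 and 1 (0.0954, 0.00222 to 0.657). Hist1h3a did not pass with scaling to total reads. The median was 0.31. In this comparison fold changes fell with exon length over all genes (Spearman rho -0.28, a description across genes), members had a median exon length of 836 bases against 3659 for all genes tested, and with this trend removed the median was 0.13. The summed H4 reads had a ratio of 1.603 (1.33 to 1.94), and Hist1h4i had 115 and 179 reads (1.63, 1.29 to 2.08). Hist1h2bg was lower, with 126 and 74 reads (0.616, 0.456 to 0.828). The S phase list had a median of 0.87, with 8 of 30 genes higher by a fold of at least 2. Genes of other cells were also higher by that fold, 9 of 10 neutrophil, 6 of 9 erythroid, 2 of 7 plasma cell and 2 of 6 T cell genes. Of the B cell genes, 0 of 8 were. The part of these cells in the values was not tested.

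Iron in normal mice was addressed by WT/FE against WT macrophages. Of 23 members tested, 0 were higher and 0 lower by a fold of at least 2, against 0.728% and 0.541% of all genes, with a median of -0.02. Hist1h1c had 929 reads in WT and 997 in WT/FE macrophages, a scaled ratio of 1.25 (1.14 to 1.37), and the summed ratio of 1.15 (1.08 to 1.23) was 1.07 (0.982 to 1.17) without it. In leukemic mice, MA9/FE against MA9 macrophages, 2 of 27 members were higher, again Hist1h2bb (3 and 14 reads) and Hist1h3i (5 and 19 reads), and 0 lower, against 1.09% and 1.34%. The median was 0.21, and 0.12 with the length trend removed. Hist1h1c had 850 and 1013 reads, a ratio of 1.26 (1.15 to 1.39). The S phase list went the other way, with a median of -0.43 and 29 of 30 genes lower, among them Mki67 at 57.1 and 24.8 FPKM. Hist1h1c was thus higher with iron in all 3 pairs, by ratios of 1.25, 1.26 and 1.59. In the model over 6 libraries its iron term was 0.43 (SE 0.11, unadjusted p = 0.00951, adjusted p = 0.991 by limma). For iron, 0 members and 0.00% of all genes passed, with 5 members and 596 of 17002 genes at an unadjusted p under 0.05. Macrophage genes took 0.159% and 0.272% of reads in normal mice and 0.164% and 0.330% in leukemic mice, each without and with iron. In the macrophages of leukemic mice, neutrophil genes took 0.175% without and 0.0869% with iron. B cell genes took 0.323% and 0.493% there, and erythroid genes 0.0318% and 0.0482%. The part of all these cells in the histone and S phase values was not tested.

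**Figure D4:**
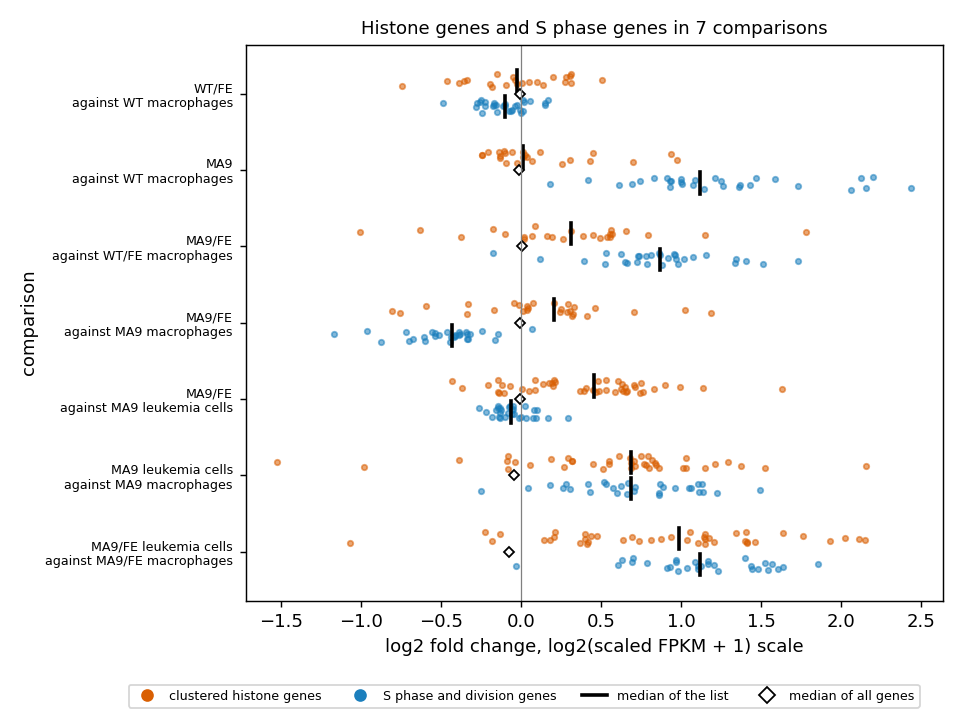
Log2 fold change, on the log2(scaled FPKM + 1) scale, of the clustered histone genes tested (orange) and of 30 S phase and division genes (blue) in 7 comparisons, with the median of each list (black bar) and of all genes (diamond). The histone median lies near 0 where the S phase median is 1.12 (MA9 against WT macrophages) and at 0.46 where the S phase median is -0.06 (MA9/FE against MA9 leukemia cells).

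The comparisons share libraries and are not independent of each other, and side by side they were as follows. The medians of the histone members were -0.02, 0.01, 0.31, 0.21, 0.46, 0.69 and 0.99, in the order of the plot of log2 fold changes, and those of the S phase list -0.10, 1.12, 0.87, -0.43, -0.06, 0.69 and 1.12. The difference between the lists was not tested.

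Members also differed in the length of their annotated 3′ end, which the rule did not use. In 28 genes the annotated transcript ran for at least 150 bases after the stop codon, and these held 90.04% of all member reads. The 27 of them other than Hist1h1c held 46.3% of all member reads, a total that includes Hist1h1c. The remaining 39 members ended sooner, 13 of them at the stop codon, and held 9.96%. Longer transcripts collect more reads, and per kilobase the difference was small, with medians over the 6 libraries together of 77.2 and 59.4 reads per kilobase. The 28 genes hold all of the 7 with at least 100 reads in some library. The 150-base limit was set after the values were seen.

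Genes with short 3′ ends separated leukemia cells from macrophages more, and differed less between leukemia cells with and without iron, than those with long ones. The 39 genes with short ends had 161 reads in MA9 macrophages and 512 in MA9 leukemia cells (ratio 2.81, 2.35 to 3.38), and 156 and 635 with iron (3.43, 2.88 to 4.12). The 28 genes with long ends had ratios of 1.37 (1.29 to 1.46) and 1.95 (1.85 to 2.05). For iron in leukemia cells the ratio was 1.25 (1.12 to 1.41) for short and 1.70 (1.62 to 1.78) for long ends. In WT/FE against WT macrophages it was 0.776 (0.589 to 1.02) and 1.18 (1.11 to 1.26), and in MA9/FE against WT/FE macrophages 1.78 (1.37 to 2.33) and 1.12 (1.06 to 1.20). The share of member reads on genes with short ends was 4.56% to 8.09% in the macrophages and 15.3% and 11.8% in the leukemia cells. With 1 library per condition these differences were not tested against the spread between mice.

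**Figure D5:**
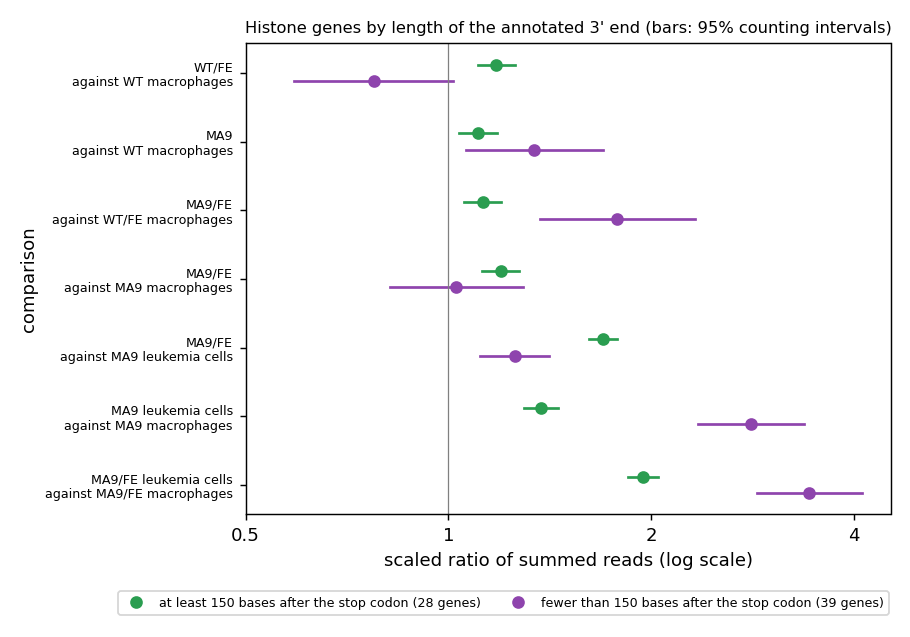
Scaled ratio of summed reads (log axis) in 7 comparisons for the 28 clustered histone genes whose annotated transcript runs at least 150 bases past the stop codon (green) and the 39 others (purple), with 95% counting intervals. The intervals of the 2 groups do not overlap, with short ends higher, in leukemia cells against macrophages and in MA9/FE against WT/FE macrophages. Nor do they overlap, with long ends higher, in MA9/FE against MA9 leukemia cells and in WT/FE against WT macrophages. They overlap in MA9 against WT and in MA9/FE against MA9 macrophages.

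Members resemble each other, which limits how reads can be assigned to one of them. Over stretches of 100 bases, 14 genes shared under 10% with the transcripts of other genes, and all of these had reads. At least 90% was shared by 9 genes, of which 5 had 0 reads in every library (Hist2h2aa1, Hist2h2aa2, Hist2h2bb, Hist2h3b and Hist2h3c1), so a count of 0 there does not show that the gene is silent. Hist1h1c shared 5.06% of its stretches, Hist3h2ba 4.85%, Hist1h4i 15.1%, Hist1h2bc 25.4% and Hist1h2bg 44.9%, and the value of Hist1h2bg is the least certain of these. The ratio for iron in leukemia cells was 1.62 (1.53 to 1.72) over the 14 genes with little sharing, 1.73 (1.54 to 1.94) over these without Hist1h1c, and 1.64 (1.54 to 1.76) over the 44 genes with 10% to under 90%. Exons of 24 members overlap those of another annotated gene, 21 of them on the opposite strand. Whether the libraries kept the strand is not stated in the sources used here, so reads of such pairs cannot be told apart. None of Hist1h1c, Hist1h2bc, Hist1h2bg, Hist1h4i, Hist2h2be and Hist3h2ba is among the 24. Hist3h2a and Hist1h2ac, which also had at least 100 reads in a library, are among them. Hist3h2a overlaps Trim17 on the same strand and Gm44313 on the opposite strand, and Hist1h2ac overlaps Gm24991 and Gm44350 likewise.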

How the data were processed

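RNA-seq libraries of sorted macrophages and leukemia cells (6 libraries, 1 per condition) were grouped by their sample labels. FPKM of 54532 genes, named by Ensembl identifiers, are what the authors deposited. The submitters' processing notes name Bowtie2 2.2.5, RSEM and mm10 without their roles. How reads shared by similar genes were assigned, poly(A) selection and strand are not given in the sources used here. FPKM multiplied by GENCODE M21 exon length (54495 genes) gave whole multiples of 1 step for 96.8% to 97.0% of values above 0 (within 0.05 reads), and hence the reads per gene and a depth of 16085346 to 19518359 reads. At this depth the difference between mice, which was not measured, limits most statements.

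FPKM was scaled by TMM factors (coded by hand, trims of 30% and 5%, genes with at least 10 reads in every library) and compared as log2(scaled FPKM + 1), so fold changes of low genes are understated. Genes with at least 10 reads in one of a pair were compared. A fold of at least 2 was counted without a test, since there are no replicates. Ratios of scaled reads carry exact conditional 95% counting intervals, and shares of reads Wilson intervals. limma 3.58.1 (R 4.3.3, trend) was fitted over all 6 libraries on the 17002 genes that reached 10 reads in 2 or more libraries, with Benjamini-Hochberg adjustment and a threshold of 0.05, and was tested on simulated data. The stem-loop was searched in GENCODE M21 transcripts and 100-base stretches were compared between transcripts. Members and lists were chosen with earlier results of these data known. Genes were named if they had at least 100 reads in a library, were among the 3 largest changes in either direction with a fold of at least 2 and 50 reads, passed limma, or stood on a fixed list. The others named (Hist1h3d, Hist1h1d, Hist1h2bj, Hist1h2bl, Hist1h2bb, Hist1h3i, Hist1h3a, Hist1h4m and the paired genes) were chosen after their values were seen. Of the lists, Symplk, Zcchc11 and Ahsp were not matched to a gene. Of the other lists, 6 plasma cell (without Mzb1, whose FPKM did not give whole reads in every library), 6 T cell, 5 megakaryocyte and 6 MLL-AF9 leukemia genes were also measured, and took 0.209% to 0.510%, 0.0203% to 0.0276%, 0.00126% to 0.00455% and 0.0229% to 0.0359% of the reads in the macrophage libraries. Alternatives were other scalings, pseudocounts of 0.1 and 0.5, no minimum of reads, a minimum of 50 reads, removal of the trend with exon length, totals without hemoglobin and immunoglobulin or mitochondrial genes, limma without the iron term and, chosen after seeing the data, genes with a mean of at least 10 reads.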

Additional observations from a re-analysis of the deposited data

How the results depend on the processing

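The scalings by total reads, by median of ratios and by TMM without hemoglobin and immunoglobulin genes reversed no result here and moved no total count of members past a fold of 2 by over 1.5 times, but scaling to total reads took the 1 lower gene to 0 in MA9/FE against WT/FE macrophages (Hist1h3a) and in MA9/FE leukemia cells against MA9/FE macrophages (Hist3h2ba). The pseudocount and the filter set the counts. With a pseudocount of 0.5 the count past a fold of 2 was 2 for MA9 against WT macrophages, 6 for MA9/FE against MA9 leukemia cells and 18 for MA9 leukemia cells against MA9 macrophages, and the medians were 0.57 for MA9/FE against MA9 leukemia cells and 0.94 and 1.12 for leukemia cells against macrophages without and with iron. With 0.1 the counts were 2 for iron in normal mice, 3 and 9 for leukemic against normal mice without and with iron, 6 for iron in macrophages of leukemic mice, 12 for leukemia cells with iron and 26 for leukemia cells against macrophages without iron, and the medians 0.55 (MA9/FE against WT/FE), 0.33 (MA9/FE against MA9 macrophages), 0.65 (leukemia cells with iron), 1.11 and 1.51 (leukemia cells against macrophages without and with iron). With no minimum of reads the medians of the same comparisons were 0.18, 0.0408, 0.21, 0.54 and 0.71. With at least 50 reads the counts were 0 for MA9/FE against WT/FE and against MA9 macrophages, 1 for leukemia cells with iron and 1 (a lower gene) and 10 for leukemia cells against macrophages without and with iron, the medians were 0.19, 0.59, 0.25 and 1.15 for MA9/FE against WT/FE macrophages, leukemia cells with iron and leukemia cells against macrophages without and with iron, and limma called 5 members in leukemia cells against MA9 macrophages, with fewer genes tested. WT/FE against WT macrophages had a median of 0.20 with at least 50 reads and 0.042 with the length trend removed, in place of -0.02, and the cause was not tested. With the length trend removed the medians were 0.13 for MA9/FE against WT/FE macrophages and 1.07 for MA9/FE leukemia cells against MA9/FE macrophages, and the counts 2 for MA9 against WT and 1 for MA9/FE against MA9 macrophages. Over genes with a mean of at least 10 reads, an alternative chosen after seeing the data, the counts were 1 for leukemia cells with iron and 6 and 14 for leukemia cells against macrophages without and with iron, and the medians of the last 2 were 0.55 and 0.88. Without hemoglobin and immunoglobulin genes in the total, members took 0.0124% of reads in MA9 and 0.0148% in MA9/FE macrophages. No paired analysis was possible because each condition has 1 library and the labels give no replicate numbers, and no library could be left out of a comparison of 2 libraries.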
